A study of Mus musculus with 47 samples.

Results

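The 7 genes described here belong to the aryl hydrocarbon receptor (AHR) pathway and were taken as a named list: Ahr, Arnt, Cyp1a1, Cyp1b1, Nqo1, Tiparp and Ahrr, of 35856 gene symbols measured. AHR is a ligand-activated transcription factor of the bHLH-PAS family that waits in the cytoplasm in a complex with HSP90. With a ligand bound, it enters the nucleus, pairs with ARNT, and binds DNA elements with the core GCGTG. Indole compounds made from tryptophan are among its known ligands, and indole-3-acetic acid (IAA), the auxin used to trigger degron-tagged proteins for destruction, is itself an indole. CYP1A1 and CYP1B1 are monooxygenases that oxidise aromatic compounds and are the usual readouts of the pathway. NQO1 is a quinone reductase that is also a target of NRF2, the transcription factor of the antioxidant response. AHRR, a repressor that competes for ARNT, and TIPARP, an ADP-ribosyltransferase, act as negative feedback on AHR.

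Polyadenylated RNA was sequenced from 4 C57BL/6 mouse embryonic stem cell lines, all expressing Tir1, the plant F-box protein that recognises the auxin-inducible degron (AID). One line was untagged and the others were SUZ12-AID, MTF2-AID and AID-JARID2, named SUZ12, MTF2 and JARID2 below after subunits of the PRC2 histone methyltransferase. Embryonic stem cells (ESC) were kept with LIF (100 U/ml) and the inhibitors CHIR99021 (3 µM) and PD0325901 (1 µM). Neural progenitor cultures (NPC) received 10 ng/ml bFGF for 72 hours and then 500 nM SAG, a Hedgehog agonist, for 48 hours. Auxin was 50 µM IAA, given for 12 hours to ESC and 5 days to NPC, and every line had untreated cells at both stages. This makes 16 groups, with 3 biological replicates in each but the auxin-treated SUZ12 NPC group (n = 2). The untagged line received auxin without losing a tagged protein and is the reference for auxin itself. Whether each line was 1 clone is not given in the sources used here. For MTF2 and JARID2 NPC the sample titles give day 0; the cell type and treatment labels give NPC and 5 days, and these were followed.

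The 47 libraries (24 ESC and 23 NPC) held 3.24 to 8.71 M reads, with a median of 5.39 M (M, 1000000), and all library names carry the same run name. Tags act on proteins, so the transcript tables hold no check of degradation. The summed level of 6 stem cell markers (Pou5f1, Nanog, Zfp42, Esrrb, Klf4 and Tdh) was 3940 to 4670 TPM in ESC and 16.9 to 22.4 TPM in untagged NPC. A sum of 7 neural progenitor markers (Sox1, Pax6, Nkx6-1, Olig2, Nes, Fabp7 and Sox2) was 405 to 501 TPM in ESC and 1610 to 1830 TPM in untagged NPC. In ESC libraries Sox1, Pax6, Nkx6-1 and Nes reached at most 1.57, 4.35, 0.853 and 14 TPM. Most of the ESC sum therefore lay in the remaining genes, Olig2, Fabp7 and Sox2, and it does not measure a neural program.

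RefSeq promoter sequences (GRCm38.p6) were given for 6 of the 7 genes, all but Ahr. The 4 shown are those of genes called with auxin within a stage, in a line or in the average over lines, namely Cyp1a1, Cyp1b1 and Nqo1 and, without the filter on low values, Ahrr. Each is the 250 bases before the annotated start, 5′ to 3′ on the gene's strand, with matches to GCGTG on either strand (CACGC where on the opposite strand) in capitals. They lie at chr9:57697363-57697612 (plus strand), chr17:79715062-79715311 (minus), chr8:107403206-107403455 (minus) and chr13:74292332-74292581 (minus).
Cyp1a1: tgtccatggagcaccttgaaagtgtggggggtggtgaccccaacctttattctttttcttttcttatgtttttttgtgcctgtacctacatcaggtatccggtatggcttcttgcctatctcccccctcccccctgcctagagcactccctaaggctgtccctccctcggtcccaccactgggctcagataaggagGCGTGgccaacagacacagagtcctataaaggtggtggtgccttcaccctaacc
Cyp1b1: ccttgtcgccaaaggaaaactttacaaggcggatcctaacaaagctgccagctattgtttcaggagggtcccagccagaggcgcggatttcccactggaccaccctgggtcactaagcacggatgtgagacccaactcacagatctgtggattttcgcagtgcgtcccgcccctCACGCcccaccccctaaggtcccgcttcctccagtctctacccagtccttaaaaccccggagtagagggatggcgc
Nqo1: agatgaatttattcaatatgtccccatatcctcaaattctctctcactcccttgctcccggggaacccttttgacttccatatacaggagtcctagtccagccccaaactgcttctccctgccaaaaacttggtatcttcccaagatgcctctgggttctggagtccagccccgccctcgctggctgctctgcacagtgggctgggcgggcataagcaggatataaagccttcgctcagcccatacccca
Ahrr: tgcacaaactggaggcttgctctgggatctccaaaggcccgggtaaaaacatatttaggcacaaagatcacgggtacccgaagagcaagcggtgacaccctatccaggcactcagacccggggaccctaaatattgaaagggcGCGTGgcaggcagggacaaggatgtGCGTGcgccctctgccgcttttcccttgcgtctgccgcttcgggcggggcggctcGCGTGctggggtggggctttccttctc
In the full RefSeq window of 300 bases, 250 before and 50 after the start, Cyp1a1 and Cyp1b1 each held 1 GCGTG, beginning 54 bases before the start on the gene's strand for Cyp1a1 and 76 bases before it on the opposite strand for Cyp1b1. Ahrr held 3, beginning 107, 82 and 27 bases before the start, and the last of them also matched the longer form TNGCGTG. Tiparp and Arnt held 1 GCGTG each, and the Nqo1 window held none. Of 32851 such windows of all genes, 32.4% held GCGTG, 5.07% held TNGCGTG, which contains it, and 3.91% held GCGTG at least 3 times. The antioxidant element TGACNNNGC was found in 12.4% of windows on either strand and, among the 6 genes, in Arnt alone. Cyp1a1 lies at chr9:57687928-57703824 (GENCODE M21, GRCm38), Cyp1b1 at chr17:79701537-79715061, Nqo1 at chr8:107388225-107403206, Ahrr at chr13:74211118-74292331, Ahr at chr12:35497974-35535038, Arnt at chr3:95434388-95497240 and Tiparp at chr3:65528410-65555518. The Cyp1a1 window lies inside the GENCODE span of the gene, as its RefSeq start is downstream of the GENCODE one. The motif matches are letters in a window, not measured binding.

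In ESC, 12 hours of auxin raised Cyp1a1 in every line, the untagged one included, from almost no reads to 1 or a few TPM. Cyp1b1 was called higher in the untagged and SUZ12 lines, from a similarly low level, and Nqo1, already abundant, was called higher by a small fraction in the same lines. Ahrr was called higher in the SUZ12 line. The mean of each of these genes was higher with auxin in 4 of 4 lines, and no tagged line was called different from the untagged one, so the calls do not set lines apart. The receptor Ahr, its partner Arnt and the feedback gene Tiparp did not pass the test in any line.

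Cyp1a1 in untagged ESC was 0.15, 0.142 and 0.146 TPM untreated, 1 read in each library, and 1.76, 0.644 and 1.91 TPM with auxin, 12, 5 and 15 reads. All 3 auxin libraries lay above all untreated ones. In SUZ12 ESC it was 0.177, 0.284 and 0.316 TPM untreated and 3.25, 2.31 and 2.67 TPM with auxin. MTF2 ESC had 0 reads in the 3 untreated libraries and 0.676, 0.94 and 0.792 TPM with auxin. In JARID2 ESC the values were 0.177, 0 and 0 TPM untreated and 0.898, 1.24 and 2.03 TPM with auxin. The groups did not overlap in 4 of 4 lines. Among the 15104 genes tested, all auxin libraries were higher for 9.04% of genes in the untagged line, 26.9% in SUZ12, 8.88% in MTF2 and 6.69% in JARID2.

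Over the 12 untreated ESC libraries Cyp1a1 had 12 reads in all, and over the 12 auxin libraries 132. From the reads pooled over each group, the ratio of auxin to untreated was 9.77 (95% exact interval 3.06 to 49.9) in the untagged line and 10.6 (5.07 to 25.8) in SUZ12. It was 26.6 (4.34 to 1090) in JARID2, where untreated cells had 1 read, and at least 4.41-fold higher in MTF2, counted against 3 reads over the group. These intervals cover counting error only, and reads without molecular identifiers may include PCR copies.

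The test was limma on log2(TPM + 0.5) with all 8 ESC groups in 1 fit, two-sided. Calls were made where the p adjusted over all tested genes (Benjamini-Hochberg) lay under 0.05. The pseudocount understates the change of genes this low. Cyp1a1 reached 1 TPM only in auxin libraries and passed the filter (1 TPM in at least 2 libraries) through them, so its call is not independent of that filter. Without the filter it was called in the same 4 lines. The log2 change was 1.51 (SE 0.29, limma adjusted p = 0.023) in untagged ESC, where 0.212% of genes were called, and 2.09 (SE 0.29, limma adjusted p = 0.000168) in SUZ12, where 6.83% were. It was 1.38 (SE 0.29, limma adjusted p = 0.0176) in MTF2 and 1.73 (SE 0.29, limma adjusted p = 0.00441) in JARID2, with 1.09% and 0.298% of genes called. Averaged over the 4 lines the change was 1.68 (SE 0.14, limma adjusted p = 9.27e-08), the fourth largest rise of 15104 genes, of which 8.38% were called.

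On recovered reads (voom) the changes were larger, 2.63 in untagged, 3.17 in SUZ12, 3.24 in MTF2 and 3.62 in JARID2, and with a pseudocount of 0.1 they were 2.51, 2.99, 3.16 and 3.34; with a pseudocount of 1 the JARID2 and MTF2 changes were 1.15 and 0.85. All of these passed. The untagged call ended when only its 6 libraries were fitted (limma adjusted p = 0.252) and without any 1 of the untreated libraries (1.51) or without auxin library 1 (1.36) or 3 (1.31). The MTF2 call ended without untreated library 1 or 3 (1.38), auxin library 2 (1.3) or auxin library 3 (1.38), and the JARID2 call without auxin library 3 (1.5) or when only its own libraries were fitted (limma adjusted p = 0.565).

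In none of the tagged lines was the ESC response of any of the 7 genes called different from that of the untagged line by limma; the unadjusted p was under 0.05 for 1 gene in each, and 0 were called with voom. The SUZ12 change of Cyp1a1 minus the untagged one was 0.58 (SE 0.41, limma adjusted p = 0.65), a comparison in which 0.192% of genes were called. For MTF2 the difference was -0.13 (SE 0.41), turning to 0.61 on recovered reads, and for JARID2 0.22 (SE 0.41), with a limma adjusted p of 1 in both and with 0.00662% and 0.0% of genes called. With standard errors this wide, a difference of the size of the SUZ12 one was not detectable at this depth.

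**Figure D1:**
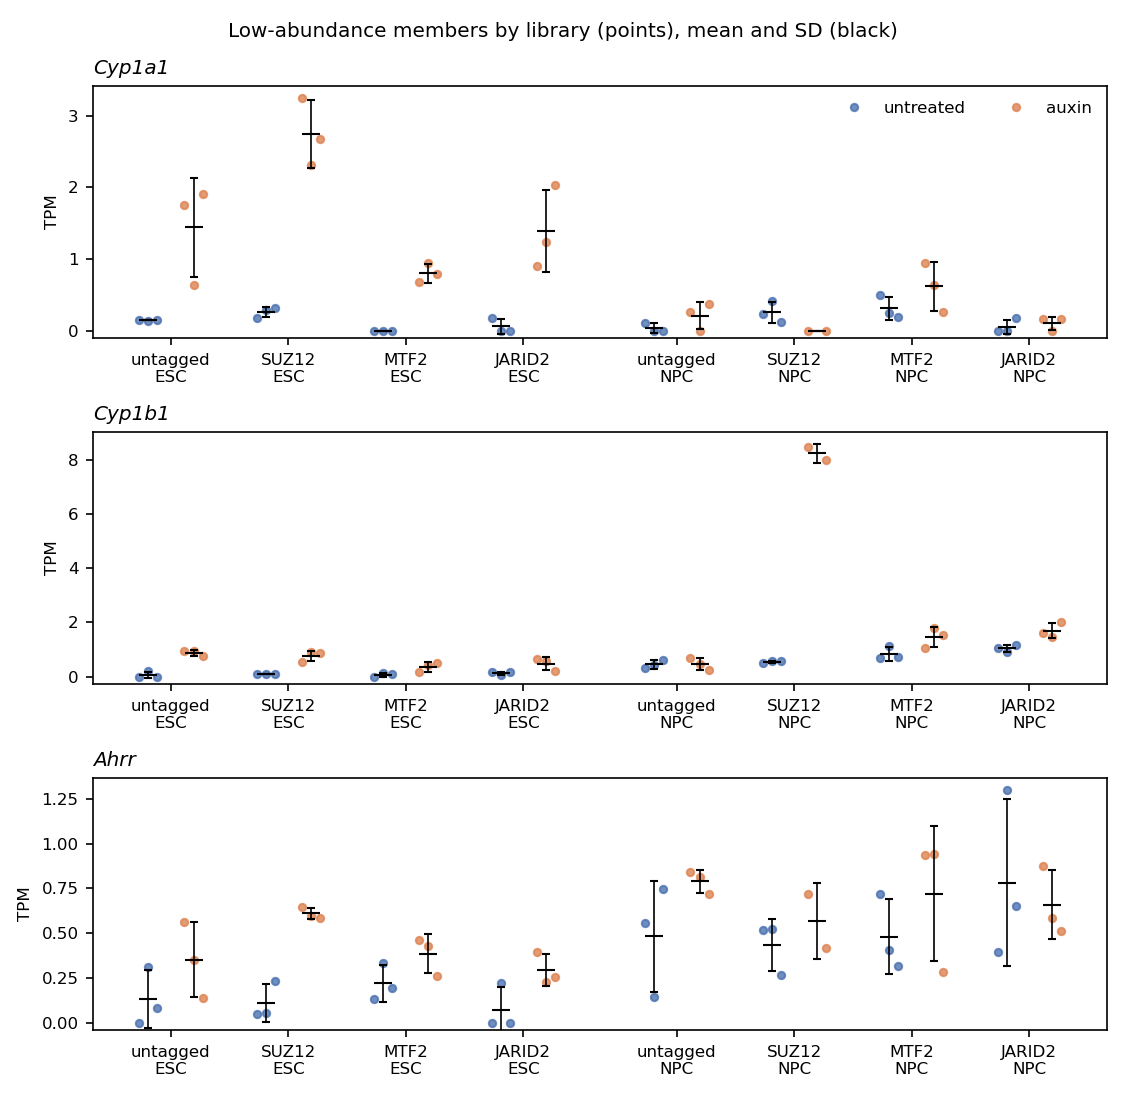
Level in TPM (vertical axis) of Cyp1a1, Cyp1b1 and Ahrr in each library (points, blue untreated, orange auxin) with mean and SD (black), by line and stage; the scale differs between panels. Cyp1a1 with auxin lies above untreated in each ESC line, with group means of 0.803 to 2.74 TPM, and Cyp1b1 reaches 7.99 and 8.49 TPM in SUZ12 NPC with auxin.

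Cyp1b1 stayed below 1 TPM in every ESC library, so it was outside the filtered test, and its calls come from the same fit without the filter (24675 genes). In untagged ESC it was 0, 0.196 and 0 TPM untreated and 0.942, 0.947 and 0.761 TPM with auxin, 3 against 43 reads. In SUZ12 ESC it was 0.0813, 0.0869 and 0.0968 TPM untreated and 0.543, 0.893 and 0.86 TPM with auxin. In MTF2 ESC the values were 0, 0.139 and 0.0818 TPM against 0.155, 0.432 and 0.51 TPM. Each auxin library was above the untreated ones of its line in these lines and in JARID2, where untreated cells had 0.162, 0.0612 and 0.168 TPM and auxin cells 0.66, 0.571 and 0.215 TPM. Among the filtered genes, which leave out Cyp1b1, this held for 9.04% in untagged, 26.9% in SUZ12, 8.88% in MTF2 and 6.69% in JARID2. The separation was narrow in MTF2, where the closest libraries had 2 reads with auxin (0.155 TPM) and 2 reads untreated (0.139 TPM). In JARID2 they had 3 reads with auxin (0.215 TPM) and 2 reads untreated (0.168 TPM). The pooled read ratio was 13.1 (95% exact interval 4.2 to 66.1) in untagged, 8.84 (3.71 to 25.6) in SUZ12, 4.41 (1.25 to 23.8) in MTF2 and 3.77 (1.34 to 13.1) in JARID2.

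The Cyp1b1 log2 change was 1.31 (SE 0.21, limma adjusted p = 0.00985) in untagged ESC and 1.09 (SE 0.21, limma adjusted p = 0.00781) in SUZ12, where 0.118% and 3.23% of unfiltered genes were called. It was 0.58 (limma adjusted p = 0.386) in MTF2 and 0.61 (limma adjusted p = 0.441) in JARID2, neither past the threshold. Averaged over lines it was 0.9 (SE 0.11, limma adjusted p = 3.33e-05), with 3.98% of genes called. The differences of the tagged lines from the untagged one, -0.21 in SUZ12, -0.73 in MTF2 and -0.69 in JARID2, had limma adjusted p-values of 0.886, 0.934 and 0.973. On recovered reads the untagged change was 3.83 and the SUZ12 change 2.8, and with pseudocounts of 0.1 and 1 the untagged change was 2.77 and 0.83 and the SUZ12 change 2.17 and 0.69. The untagged call ended without untreated library 1 or 3 (1.23) or auxin library 2 (1.27), and both calls ended when only the line's own libraries were fitted (limma adjusted p = 0.22 and 0.0542).

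Nqo1 was abundant in ESC and its reads were plentiful, 7184 untreated and 7783 with auxin. Untagged ESC had 144, 160 and 147 TPM untreated and 182, 176 and 197 TPM with auxin. SUZ12 ESC had 137, 140 and 143 TPM against 168, 155 and 160 TPM. Auxin libraries lay above untreated ones in these lines and in MTF2 (161, 165 and 170 against 188, 196 and 181 TPM), and overlapped them in JARID2 (181, 156 and 155 against 185, 168 and 192 TPM). All auxin libraries were higher for 9.04% of tested genes in untagged, 26.9% in SUZ12 and 8.88% in MTF2. The log2 change was 0.3 (SE 0.06, limma adjusted p = 0.0332) in untagged and 0.2 (SE 0.06, limma adjusted p = 0.0482) in SUZ12. It was 0.18 (limma adjusted p = 0.196) in MTF2 and 0.15 (limma adjusted p = 0.44) in JARID2, and 0.21 (SE 0.03, limma adjusted p = 0.000116) averaged over lines. The single-line calls lie near the threshold: the SUZ12 call ended without any 1 of its 6 libraries (0.17 to 0.23), with median-of-ratios scaling (0.09, limma adjusted p = 0.331) and without the filter, and the untagged call ended without untreated library 1 (0.27) or 3 (0.28) or any 1 auxin library (0.25 to 0.33) and without the filter.

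Ahrr gave 21 reads in untreated and 61 in auxin ESC libraries. In SUZ12 ESC it was 0.0485 to 0.231 TPM untreated and 0.586 to 0.648 TPM with auxin, with no overlap, a log2 change of 0.88 (SE 0.22, limma adjusted p = 0.0351, no filter). Auxin libraries were also all higher in JARID2, but by a hair, with 0.227 TPM (2 reads) with auxin against 0.219 TPM (3 reads) untreated. The pooled read ratio there was 3.33 (95% exact interval 0.831 to 19.1). Among the filtered genes, which leave out Ahrr, all auxin libraries were higher for 26.9% in SUZ12 and 6.69% in JARID2. Untagged (0.43), MTF2 (0.3) and JARID2 (0.48) changes did not pass, and the average over lines was 0.52 (SE 0.11, limma adjusted p = 0.00877). The SUZ12 call ended with a pseudocount of 0.1 (1.86, limma adjusted p = 0.0783), with only its own libraries (limma adjusted p = 0.0872) and without untreated library 1 or 2 (0.81) or auxin library 1 (0.85), 2 (0.88) or 3 (0.89), while recovered reads gave 2.45 and a pseudocount of 1 gave 0.54, both past the threshold. For the average, recovered reads gave 1.66.

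The receptor itself was present before treatment, with Ahr at 2.28 to 4.27 TPM in untreated and 2.59 to 4.94 TPM in auxin ESC libraries. Its log2 changes were -0.18 in untagged, 0.29 in SUZ12, 0.1 in MTF2 and -0.07 in JARID2, and the smallest limma adjusted p was 0.261. In SUZ12 the auxin libraries (4 to 4.94 TPM) lay above the untreated ones (3.24 to 3.6 TPM), as for 26.9% of genes in that line. The pooled read ratio of Ahr there was 1.26 (95% exact interval 1.03 to 1.54). Arnt was 39 to 50.6 TPM in all 24 ESC libraries, with changes of -0.13 to 0.04. Tiparp was 15 to 25.5 TPM, with changes of -0.27 in JARID2 to 0.1 in SUZ12 and a smallest limma adjusted p of 0.506. In untagged ESC limma called 0 of 6 stem cell markers with auxin (0 with voom), in a comparison with 0.212% of all genes called. At an unadjusted p under 0.05 there were 3 of the 6, against 1143 of 15104 genes. The sum of these markers was 4170 to 4290 TPM untreated and 4120 to 4170 TPM with auxin.

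**Figure D2:**
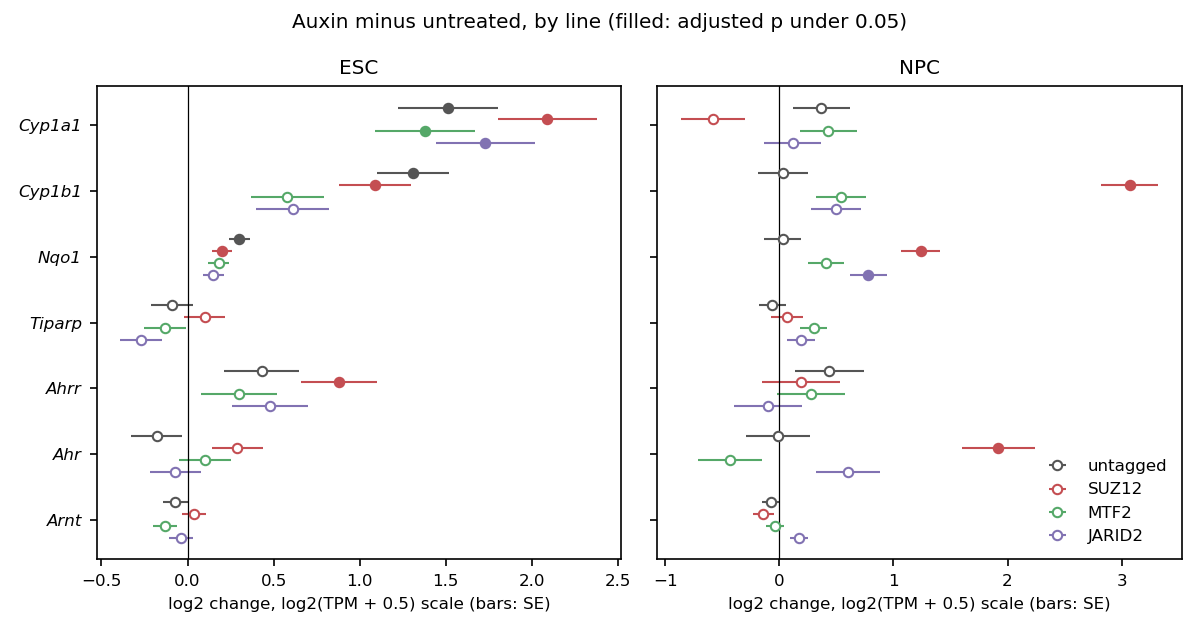
Log2 change with auxin (horizontal axis, log2(TPM + 0.5) scale, bars SE) of the 7 genes in ESC (left) and NPC (right), 1 point per line, filled where the limma adjusted p is under 0.05; genes below the filter of a stage (Cyp1b1 and Ahrr in ESC, Cyp1a1 and Ahrr in NPC) come from the fit without it. In ESC the 4 Cyp1a1 points lie between 1.38 and 2.09, and in NPC the points farthest from 0 are Cyp1b1 (3.07), Ahr (1.92) and Nqo1 (1.24) of the SUZ12 line, followed by Nqo1 of JARID2 (0.78).

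In NPC, after 5 days of auxin, limma called none of the 7 genes in the untagged line, where it called 0.0% of 16469 genes. At an unadjusted p under 0.05 there were 1180 genes and none of the 7, and a voom fit had 16 calls in all and none of the 7. In that line Cyp1a1 had 4 reads over 3 auxin libraries against 1 read over 3 untreated ones. In SUZ12 NPC, by contrast, Cyp1b1, Ahr and Nqo1 were called higher with auxin, and in JARID2 NPC Nqo1 was. Limma did not call Ahrr, Tiparp or Arnt in any line.

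Cyp1a1 was at 0 in 8 of the 23 NPC libraries and at most 0.948 TPM, in an MTF2 library with auxin. Untagged NPC had 0 to 0.113 TPM untreated and 0 to 0.374 TPM with auxin, a log2 change of 0.37 (SE 0.25, limma adjusted p = 0.905, no filter). SUZ12 NPC had 0.236, 0.408 and 0.123 TPM untreated and no read in either auxin library, which allows up to 0.204 TPM over the group. This change was -0.58 (SE 0.28, limma adjusted p = 0.109), and on recovered reads it was -1.98 and passed (limma adjusted p = 0.0138). All auxin libraries were lower for 42.5% of genes in that line. MTF2 NPC had 5 reads untreated and 9 with auxin and JARID2 NPC 1 and 2 reads, with overlapping groups. Beyond the untagged line, the SUZ12 change was -0.95 (SE 0.37, limma adjusted p = 0.0655, no filter). It passed with a pseudocount of 0.1 (-2.74, limma adjusted p = 0.0388), on recovered reads (-3.47, limma adjusted p = 0.00286) and with only the compared groups fitted (limma adjusted p = 0.0445). All Cyp1a1 values in NPC rest on 28 reads over 23 libraries, and whether the SUZ12 change passed depended on how low values were treated.

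Cyp1b1 in untagged NPC was 0.312, 0.42 and 0.628 TPM untreated and 0.704, 0.486 and 0.258 TPM with auxin, and the groups overlapped (log2 change 0.03, SE 0.22, limma adjusted p = 1). In SUZ12 NPC it was 0.489, 0.562 and 0.563 TPM untreated and 8.49 and 7.99 TPM with auxin, 28 against 263 reads. Both auxin libraries stood far above every other library of the series, ESC included, and the pooled read ratio was 15.3 (95% exact interval 10.4 to 23.5). The log2 change was 3.07 (SE 0.25, limma adjusted p = 1.06e-09), and it exceeded the untagged one by 3.04 (SE 0.34, limma adjusted p = 2.38e-07). In that line 56.9% of 16469 genes were called, and 43.5% in the difference from untagged, so a call alone is common there; the Cyp1b1 change ranked 262 among the rises. MTF2 NPC (0.677, 1.14 and 0.709 against 1.05, 1.78 and 1.54 TPM) and JARID2 NPC (1.06, 0.922 and 1.17 against 1.62, 1.48 and 2.01 TPM) gave 0.54 and 0.5, with limma adjusted p-values of 0.15 and 0.114. Of these, the JARID2 groups did not overlap, which held with auxin higher for 14.3% of genes in that line, and the MTF2 groups did. The average over lines, 1.04 (SE 0.12, limma adjusted p = 1.75e-07, 50.8% of genes called), includes the SUZ12 value.

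Ahr in untagged NPC was 0.413, 0.681 and 0.498 TPM untreated and 0.932, 0.331 and 0.389 TPM with auxin, with overlap. In SUZ12 NPC it was 0.739, 0.354 and 0.83 TPM untreated and 3.94 and 3.53 TPM with auxin, 30 against 105 reads. The auxin libraries were within the range of the ESC libraries and above the other NPC libraries. The log2 change was 1.92 (SE 0.32, limma adjusted p = 2.41e-05), and beyond the untagged line 1.92 (SE 0.42, limma adjusted p = 0.000873). In these comparisons 56.9% and 43.5% of genes were called, and all auxin libraries of the line were higher for 30.9% of genes. JARID2 NPC, with 1.28, 0.761 and 1.07 TPM untreated and 2.25, 1.67 and 1.54 TPM with auxin, gave 0.6 and did not pass (limma adjusted p = 0.13). Its groups did not overlap, which held with auxin higher for 14.3% of genes in that line, and its pooled read ratio was 1.73 (95% exact interval 1.14 to 2.67). MTF2 NPC, with 1.02, 1.3 and 1.41 against 1.28, 0.336 and 0.942 TPM, gave -0.43 (limma adjusted p = 0.399).

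Nqo1 in untagged NPC was 7.72, 8.19 and 10.1 TPM untreated and 6.12, 9.75 and 11.4 TPM with auxin (log2 change 0.03, SE 0.16, limma adjusted p = 0.996). In SUZ12 NPC it was 11.3, 10.5 and 11.5 TPM untreated and 26 and 27.8 TPM with auxin, a change of 1.24 (SE 0.17, limma adjusted p = 3.16e-06) in a line with 56.9% of genes called. In JARID2 NPC it was 13, 17.5 and 14.5 TPM untreated and 24.5, 28.3 and 25 TPM with auxin, a change of 0.78 (SE 0.16, limma adjusted p = 0.000732) in a line with 25.0% of genes called. The treated and untreated libraries were separate in both lines and in MTF2 NPC (9.96, 10.5 and 9.61 against 15, 12.3 and 13.3 TPM), whose change of 0.41 did not pass (limma adjusted p = 0.11, 8.14% of genes called). All auxin libraries were higher for 30.9% of genes in SUZ12, 15.1% in MTF2 and 14.3% in JARID2. Beyond the untagged line the change was 1.21 (SE 0.23, limma adjusted p = 0.000242) in SUZ12, where 43.5% of genes were called. It was 0.75 (SE 0.22, limma adjusted p = 0.0347) in JARID2, where 9.04% of genes were called. In MTF2 none of the 7 was called by limma beyond the untagged line (1 at an unadjusted p under 0.05, 0 with voom, and 1.4% of all genes). The JARID2 difference ended without untagged untreated library 2 (0.78) or 3 (0.64), untagged auxin library 1 (0.5), JARID2 untreated library 1 (0.65) or 3 (0.73), or JARID2 auxin library 2 (0.68) or 3 (0.77), with only the compared groups fitted (limma adjusted p = 0.106) and without the filter (limma adjusted p = 0.0608).

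**Figure D3:**
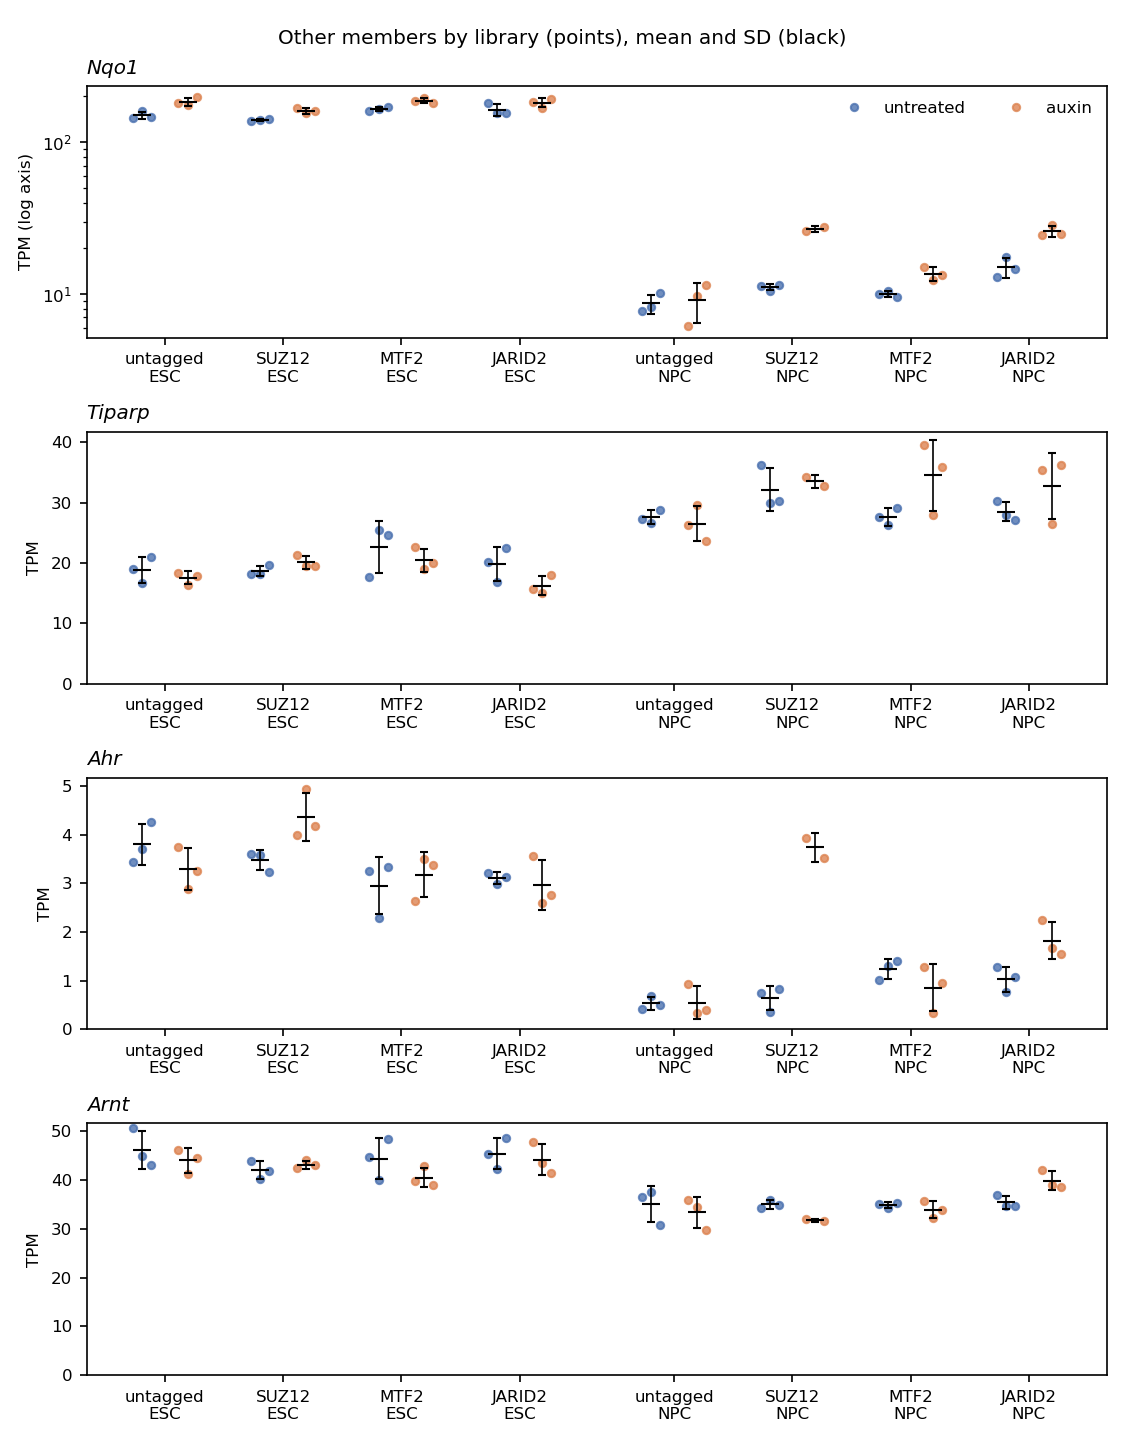
Level in TPM (vertical axis, log for Nqo1) of Nqo1, Tiparp, Ahr and Arnt in each library (points, blue untreated, orange auxin) with mean and SD (black), by line and stage. Nqo1 lies at 137 to 197 TPM in ESC and 6.12 to 28.3 TPM in NPC, and Ahr of SUZ12 NPC with auxin, at 3.53 and 3.94 TPM, lies in the range of the ESC libraries.

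Cell type markers also differed with auxin in the NPC libraries of the tagged lines. Of all genes, limma called 56.9% with auxin in SUZ12 NPC, 25.0% in JARID2, 8.14% in MTF2 and 0.0% in untagged NPC. The marker counts given here and in the next paragraph are to be read against these shares. In SUZ12 NPC, 6 of 6 stem cell markers were called higher with auxin, and their sum was 12.1 to 18.7 TPM untreated and 617 to 621 TPM with auxin, none of them at 0. Of the neural markers, 7 of 7 progenitor genes (sum 1790 to 1940 against 372 to 389 TPM) and 6 of 6 neuron genes (3960 to 4180 against 362 to 412 TPM) were called lower. Mesoderm and mesenchyme markers had 4 of 5 tested genes higher (54.8 to 58 against 191 to 192 TPM, with Mesp1 at 0 with auxin), surface ectoderm and trophectoderm markers 1 of 2 (86 to 99.8 against 383 to 396 TPM, with Krt5 and Krt14 at 0 untreated), and endoderm markers 3 higher and 1 lower of 5 (161 to 167 against 94.7 to 96.3 TPM). Endothelium and blood markers had 2 higher and 1 lower of 5 (26.7 to 28.7 against 44.1 to 44.9 TPM, with Hbb-bh1 at 0), and neural crest markers 2 higher and 1 lower of 5 (116 to 124 against 27.4 to 32.9 TPM). The endoderm and neural crest sums fell though more genes were called higher than lower, so a sum does not stand for every gene of its list. The endoderm sum was 4.15 to 5.75 TPM in untreated untagged ESC and 165 to 180 TPM in NPC, with 1 of 5 genes called higher and 2 lower.

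The stem cell sum was also 53.4 to 66.7 TPM untreated and 165 to 186 TPM with auxin in JARID2 NPC (4 of 6 called higher), and 29.9 to 36 against 60.9 to 72 TPM in MTF2 NPC (2 of 6). In JARID2 NPC, 6 of 6 neuron markers (2110 to 2540 TPM untreated against 631 to 705 TPM with auxin) were called lower, and of 7 progenitor markers 4 were lower and 1 higher (1130 to 1360 against 835 to 890 TPM). Of surface ectoderm and trophectoderm markers 1 of 2 tested was higher there (132 to 163 against 241 to 295 TPM). The stem cell sum in untagged NPC was 20.1 to 22.4 TPM untreated and 16.9 to 18.6 TPM with auxin (0 of 6). Neuron markers in that line summed to 3910 to 4310 TPM untreated and 3470 to 3700 TPM with auxin. Limma called 0 of these 6, with 6 at an unadjusted p under 0.05 and 4 called by voom. In MTF2 NPC, 4 of 6 neuron markers (3810 to 4030 against 2720 to 2820 TPM) were called lower. So were 4 of 7 progenitor markers there (1630 to 1800 against 1400 to 1550 TPM). In untreated cells Nqo1 and Ahr were higher in ESC than in NPC, and Cyp1b1 was lower in ESC. The highest Cyp1b1 value in ESC was 0.947 TPM, against 7.99 and 8.49 TPM in SUZ12 NPC with auxin. The part of the cell type markers in the Cyp1b1, Ahr and Nqo1 changes was not tested, and in bulk RNA fewer cells of a type and less RNA per cell cannot be told apart.

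**Figure D4:**
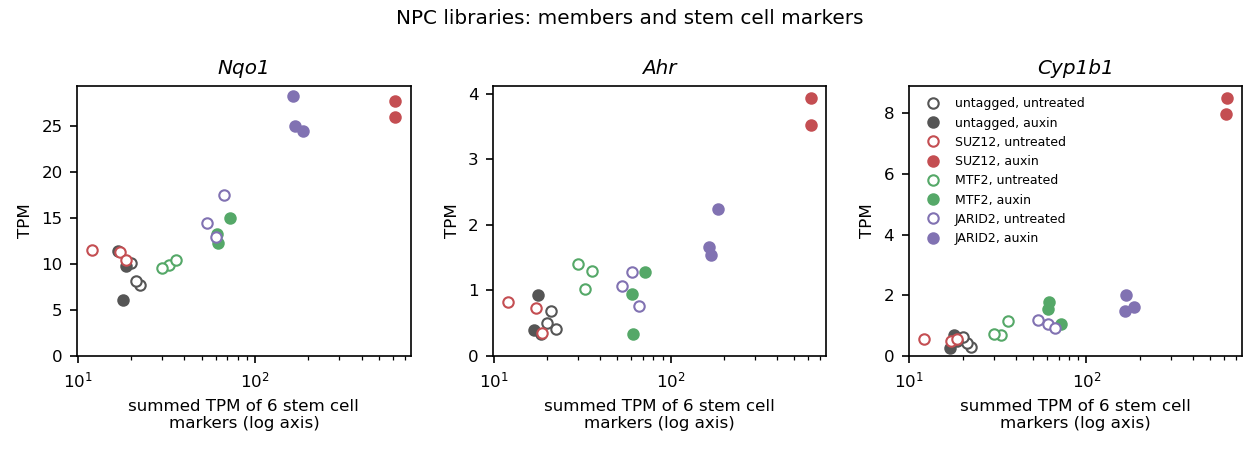
Level of Nqo1, Ahr and Cyp1b1 (vertical axes, TPM) against the summed TPM of the 6 stem cell markers (horizontal log axis) in the 23 NPC libraries, open untreated and filled auxin, coloured by line. The 2 SUZ12 auxin libraries lie at 617 and 621 TPM of markers with the highest Cyp1b1 and Ahr, while for Nqo1 the 3 JARID2 auxin libraries, at 165 to 186 TPM of markers, reach 24.5 to 28.3 TPM.

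Tiparp in NPC was 23.7 to 39.6 TPM and its auxin changes ran from -0.06 in untagged to 0.3 in MTF2 (limma adjusted p = 0.135), the latter passing without MTF2 auxin library 2 (0.44). Averaged over lines its change was 0.12 (limma adjusted p = 0.106), which passed on recovered reads (0.18) and with median-of-ratios scaling (0.16). Arnt was 29.8 to 42.1 TPM, with changes of -0.14 in SUZ12 to 0.17 in JARID2; the latter (limma adjusted p = 0.122) passed with median-of-ratios scaling (0.21) and on recovered reads (0.21). Ahrr was 0.143 to 1.3 TPM, with 79 reads untreated and 82 with auxin, and overlapped between treatments in every line.

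The auxin responses of the 2 stages were compared directly in a fit of all 16 groups. For Cyp1a1, the NPC change minus the ESC change was -1.59 (SE 0.18, limma adjusted p = 7.02e-09) averaged over the 4 lines, where 41.0% of genes were called, and the value ranked 17713 of 17760 from the top. Cyp1a1 passed the filter here through 7 ESC libraries with auxin alone, so this call too is not independent of the filter; without it the value was the same (-1.59, limma adjusted p = 5.61e-09). In the untagged line alone it was -1.14 (SE 0.36) and did not pass (limma adjusted p = 0.405), in a comparison with 0.00563% of genes called. The averaged Cyp1a1 value includes the SUZ12 NPC change of -0.58. From pooled reads, the NPC ratio of auxin to untreated was 5.32 (95% exact interval 0.526 to 262) in untagged. It was 2 (0.601 to 7.59) in MTF2 and 2 (0.104 to 118) in JARID2. The untagged interval includes the ESC ratio of 9.77. The untagged Cyp1b1 difference was -1.28 (SE 0.29, limma adjusted p = 0.14), and on recovered reads it was -3.63 and passed (limma adjusted p = 0.0116). Averaged over lines Cyp1b1 gave 0.14 (limma adjusted p = 0.488), but -1.07 on recovered reads (limma adjusted p = 0.00513) and 0.29 with a pseudocount of 1 (limma adjusted p = 0.0172), so its direction depends on how low values are treated. On average Nqo1 (0.41, SE 0.09, limma adjusted p = 0.000213), Ahr (0.49, SE 0.15, limma adjusted p = 0.00971) and Tiparp (0.22, SE 0.09, limma adjusted p = 0.0484) had higher changes in NPC than in ESC, the Tiparp call ending in most omissions of 1 library (0.19 to 0.26 over all). The average takes in the SUZ12 and JARID2 NPC changes: in the untagged line alone the differences were -0.27 for Nqo1 (limma adjusted p = 0.761), 0.17 for Ahr (limma adjusted p = 0.932) and 0.03 for Tiparp (limma adjusted p = 0.988). The stage, 12 hours or 5 days of treatment, and the medium cannot be told apart in this comparison.

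Without auxin, members of the pathway differed between the stages in both directions. Median changes of all genes from ESC to NPC were 0.282 to 0.361 on the log2 scale, so small rises are to be read against that shift, and of 17760 genes 76.1% were called in untagged, 76.8% in SUZ12, 74.9% in MTF2 and 73.4% in JARID2. Nqo1 fell most, from 140 to 166 TPM (group means) in ESC to 8.66 to 15 TPM in NPC, a log2 change of -4.05 (SE 0.12, limma adjusted p = 3.64e-27) in the untagged line and -3.98 to -3.41 in the others. Ahr fell from 2.95 to 3.8 TPM to 0.531 to 1.24 TPM, with -2.06 (SE 0.21, limma adjusted p = 4.58e-11) in untagged, -1.83 in SUZ12, -0.98 in MTF2 and -1.25 in JARID2. Arnt fell by a smaller step, -0.4 (SE 0.07, limma adjusted p = 9.11e-06) in untagged and -0.35 to -0.26 in the others.

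Cyp1b1 was higher in NPC, with means of 0.0652 to 0.13 TPM in untreated ESC and 0.453 to 1.05 TPM in untreated NPC. Its log2 change was 0.76 (SE 0.21, limma adjusted p = 0.00122) in untagged, 0.82 in SUZ12, 1.22 in MTF2 and 1.3 in JARID2, all called. Tiparp was also higher, by 0.55 (SE 0.13, limma adjusted p = 0.000195) in untagged, 0.76 in SUZ12, 0.52 in JARID2 and 0.3 in MTF2, and the MTF2 value turned to -0.05 with median-of-ratios scaling. That scaling also ended the untagged (0.22) and JARID2 (0.19) Tiparp calls, and the MTF2 call ended without MTF2 ESC library 1 (0.14) or NPC library 1 (0.3) or 3 (0.27), on recovered reads (0.05) or with only the compared groups fitted (limma adjusted p = 0.0766). Ahrr was called higher without the filter in untagged (0.62, limma adjusted p = 0.042), SUZ12 (0.62, limma adjusted p = 0.0408) and JARID2 (1.12, limma adjusted p = 0.000303) and gave 0.44 in MTF2 (limma adjusted p = 0.166). Without the filter 53.2%, 54.7% and 51.0% of genes were called in the untagged, SUZ12 and JARID2 lines. The untagged Ahrr call ended without untagged ESC library 1 (0.47) or 3 (0.57) or NPC library 1 (0.54) or 3 (0.42), and the SUZ12 call without ESC or NPC library 1 or 2 (0.55 each). Both calls also ended with a pseudocount of 1 (0.38 and 0.37) and with median-of-ratios scaling (0.51 and 0.49), and the untagged one with only the compared groups fitted (limma adjusted p = 0.118). Cyp1a1 was called in MTF2 alone (0.68, limma adjusted p = 0.0172), where untreated ESC had 0 reads and the call ended without NPC library 1 (0.53); the untagged value was -0.27 (limma adjusted p = 0.343), and on recovered reads it was -1.42 and passed (limma adjusted p = 0.0387), opposite in direction to MTF2.

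By group means over both stages, Nqo1 was the most abundant of the 7 in ESC (140 to 188 TPM), followed by Arnt (40.5 to 46.2 TPM), Tiparp (16.2 to 22.6 TPM) and Ahr (2.95 to 4.37 TPM), and these ranges did not overlap. In NPC the order was Arnt (31.7 to 39.8 TPM) and Tiparp (26.5 to 34.5 TPM), whose ranges overlapped, then Nqo1 (8.66 to 26.9 TPM, its highest mean above the lowest of Tiparp), then Ahr (0.531 to 3.74 TPM), Cyp1b1 (0.453 to 8.24 TPM) and Ahrr (0.436 to 0.79 TPM), which overlapped. For Cyp1a1 the order of the 16 group means began with SUZ12 ESC with auxin (2.74 ± 0.475 TPM, SD, n = 3), untagged ESC with auxin (1.44 ± 0.691 TPM, n = 3), JARID2 ESC with auxin (1.39 ± 0.577 TPM, n = 3) and MTF2 ESC with auxin (0.803 ± 0.132 TPM, n = 3). The untagged and JARID2 means differ by less than their SDs. MTF2 NPC with auxin followed (0.617 ± 0.346 TPM, n = 3), and every other group mean was at or below 0.311 TPM.

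Among untreated cells, the tagged lines were compared with the untagged line to see whether the pathway differed before auxin. In ESC limma called none of the 7 genes in any tagged line, where it called 1.65% (SUZ12), 15.7% (MTF2) and 6.31% (JARID2) of genes. At an unadjusted p under 0.05 there were 0, 2 and 0, and voom called Tiparp in MTF2 (0.29). In NPC, JARID2 cells had more Nqo1 (15 ± 2.28 against 8.66 ± 1.25 TPM, SD, n = 3 each, log2 difference 0.76, SE 0.16, limma adjusted p = 0.000919) and more Cyp1b1 (1.05 ± 0.126 against 0.453 ± 0.161 TPM, n = 3 each, 0.71, SE 0.22, limma adjusted p = 0.024). In that comparison 23.8% of genes were called. Markers differed between the same untreated libraries, and their part was not tested. In JARID2 against untagged NPC, 6 of 6 neuron markers (2110 to 2540 against 3910 to 4310 TPM) and 4 of 7 progenitor markers (1130 to 1360 against 1670 to 1830 TPM) were called lower. Stem cell markers had 4 of 6 higher (53.4 to 66.7 against 20.1 to 22.4 TPM), endoderm markers 5 of 5 higher (215 to 230 against 165 to 180 TPM), and surface ectoderm and trophectoderm markers 1 higher and 1 lower of 2 tested (132 to 163 against 43.8 to 47.2 TPM). The Cyp1b1 value was 1.09 with a pseudocount of 0.1 and 1.25 on recovered reads, and its call ended without untagged library 1 (0.6) or 2 (0.7) or JARID2 library 1 (0.71) or 3 (0.66). In SUZ12 and MTF2 NPC limma called none of the 7, against 0.814% and 8.76% of genes. At an unadjusted p under 0.05 there were 1 and 3, and in MTF2 NPC voom called Ahr (1.17) and Cyp1a1 (2.1).

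Of 16 other genes known to respond to AHR, 8 passed the filter in ESC, and limma called 0 of them in any line or in the average, with medians of -0.03 in untagged, 0.16 in SUZ12, 0.33 in MTF2 and -0.15 in JARID2 ESC, against 0.02, 0.09, 0.02 and 0.02 for all genes. At an unadjusted p under 0.05 there were 0 in untagged, 1 in SUZ12, 2 in MTF2 and 0 in JARID2 ESC and 3 in the average, and voom called 0, 1, 0, 0 and 1. Slc7a5, an amino acid carrier, had -0.08 in untagged ESC, and Nfe2l2, which encodes NRF2, had 0.09 in the average (limma adjusted p = 0.0997). Of 17 NRF2 targets, listed because Nqo1 answers to both factors, 16 were tested in ESC and limma called 0 in the untagged line (2 at an unadjusted p under 0.05, 0 with voom). In the average over lines, where 8.38% of all genes were called, 6 of 16 rose and 0 fell, among them Srxn1 (0.23, SE 0.03, limma adjusted p = 2.36e-05), a sulfiredoxin, Me1 (0.27, SE 0.05), malic enzyme, Gclc (0.22, SE 0.04), the catalytic subunit of glutathione synthesis, and Gsr (0.07, SE 0.02), glutathione reductase. Their median, 0.04, equalled that of all genes.

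In NPC limma called none of 15 tested NRF2 targets in the untagged line (3 at an unadjusted p under 0.05, 0 with voom), with a median of 0.02 against -0.02 for all genes. In SUZ12 NPC, where 56.9% of all genes were called, 12 rose and 2 fell, with a median of 0.71 against -0.1. In JARID2, with 25.0% of genes called, 10 rose and 0 fell (0.27 against -0.04), and in MTF2, with 8.14%, 4 rose and 1 fell (0.11 against 0.03). Srxn1 rose by 1.68 (SE 0.09) in SUZ12 and 0.83 (SE 0.08) in JARID2, and Hmox1, heme oxygenase, by 1.26 (SE 0.09) and 0.63 (SE 0.08). Gsr rose by 1.02 (SE 0.08) and 0.43 (SE 0.07), and Gsta4, a glutathione transferase, by 0.76 (SE 0.07) and 0.44 (SE 0.06), all with limma adjusted p-values of 8.61e-05 or less. The pentose phosphate enzymes Tkt (-0.35) and G6pdx (-0.28) fell in SUZ12. Beyond the untagged line, 11 of 15 were higher and 1 lower in SUZ12 (43.5% of all genes called) and 4 higher and 0 lower in JARID2 (9.04%). In MTF2 limma called 0 of 15 beyond the untagged line (5 at an unadjusted p under 0.05, 0 with voom, and 1.4% of all genes). These changes lie in the same libraries as the marker changes given above, whose part was not tested.

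**Figure D5:**
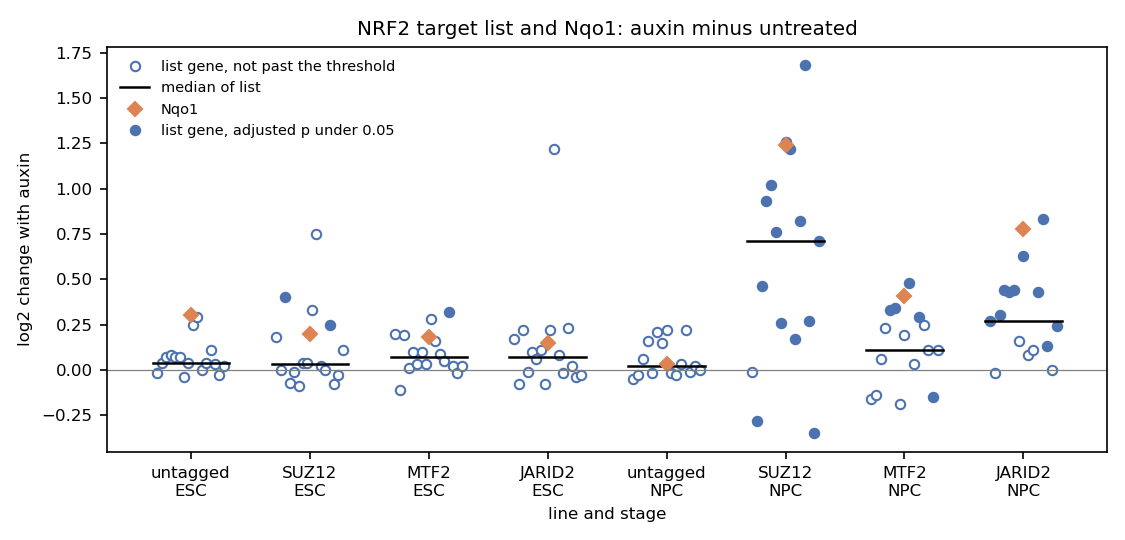
Log2 change with auxin (vertical axis) of each tested NRF2 target (circles, filled where the limma adjusted p is under 0.05), the list's median (line) and Nqo1 (diamond), by line and stage. The medians are 0.03 to 0.07 in ESC and 0.02 in untagged NPC, and 0.71 in SUZ12 NPC and 0.27 in JARID2 NPC.

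Among HSP90 chaperone genes, Ptges3 (0.09, SE 0.02) and Hsp90aa1 (0.08, SE 0.02) rose in the ESC average, small steps beside a median of 0.04 for all genes. Of 13 bHLH-PAS relatives, 6 were tested in ESC and limma called 0 in the average (2 at an unadjusted p under 0.05, 0 with voom), among them Hif1a at 0.08 and Clock at 0.12; of 9 tested in NPC, 5 rose and 3 fell in the average. In that average 50.8% of all genes were called, so the counts given for it here and in the following sentences are to be read against a high background. Hif3a (1.04, SE 0.11), Epas1 (0.71, SE 0.1), both subunits of hypoxia factors, and Sim2 (0.86, SE 0.14) rose, and Arnt2 (-0.56, SE 0.05), the neural counterpart of ARNT, and Npas3 (-0.89, SE 0.08) fell. Of the AHR targets tested in NPC, 2 of 6 rose in the average, Nfe2l2 (0.28, SE 0.04) and Slc7a5 (0.12, SE 0.04). Another 3 fell, among them Ccng2 (-0.6, SE 0.06), a cyclin, and Vav3 (-0.49, SE 0.1). Of 12 enzymes of tryptophan and kynurenine metabolism, which make natural AHR ligands, 3 were tested in ESC and limma called 0 in any line or in the average (0 at an unadjusted p under 0.05, 0 with voom). In NPC 2 of 4 rose in the average, the aminotransferases Aadat (0.64, SE 0.21) and Kyat3 (0.41, SE 0.14), and Kyat1 fell (-0.23, SE 0.07).

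The genes most like Cyp1a1 over the 16 group means, by Pearson's r of log2(mean TPM + 0.5) among 13188 genes, were Atp10d (0.889), Haus2 (0.806) and Snrnp48 (0.801). Over the 24 ESC libraries they were Aqp3 (0.896) and Slc12a2 (0.896), a water channel and an ion carrier, Fam107b (0.88), Fam53b (0.876) and Kit (0.853), a receptor tyrosine kinase. For Cyp1b1 they were Stard10 (0.949), Flt4 (0.945) and Mboat1 (0.944), and for Ahr Eva1b (0.983), Cilp2 (0.98) and Cphx3 (0.98). For Nqo1 they were Sgk1, Ly75 and Ncoa3 (0.997 each), over points that mostly separate ESC from NPC. These values describe 16 groups, or 24 libraries, that share lines, stages and treatments.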

How the data were processed

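The values are TPM deposited by the authors, 1 column per library over 35856 gene symbols, from strand-specific dUTP libraries of polyadenylated RNA, per the labels' protocols. STAR 2.6.1d and the build mm10 are named, per the submitters' processing notes; how genes were counted, and on which annotation, is not given in the sources used here. Whole reads were recovered from the TPM steps for 100% of genes above 0 (tolerance 0.001) and served for depth, read ratios and an added voom fit. A gene entered a fit if 2 or more of its libraries had 1 TPM. The fit used limma 3.58.1 (R 4.3.3, with trend and robust options) on log2(TPM + 0.5), 8 groups per stage or 16 across stages, with Benjamini-Hochberg adjustment over all genes tested. Genes below the filter were read from the same fit on every gene above 0. The test was tried on simulated data first.

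The 7 genes were named in every comparison. From each gene list, up to 4 called genes per direction were named by smallest p in the averaged auxin effects and in untagged ESC, or 2 as values where none was called; single-line values of those genes and counts by line were added. Counts for 1 of these lists are not reported here. The members and lists were chosen with earlier results of these data known. Gene positions and promoters came from GRCm38 (GENCODE M21, RefSeq GRCm38.p6), which is mm10; no protein sequence was used here. The settings varied were the pseudocount (0.1 or 1), the filter (left off), median-of-ratios scaling, recovered reads, only the groups compared, a replicate block by either numbering, and leaving out each library. Replicate numbers were not taken to pair libraries, since 1 of 23 pairs had deviations correlated above 0.1. Of 21 auxin libraries, however, 14 were closest to the untreated library of their own number among 3. Whether equal numbers share a batch was not tested, and fits with the number as a block are given below. A median depth of 5.39 M reads gives a gene near 1 TPM few reads, so read numbers stand beside low values.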

Additional observations from a re-analysis of the deposited data

Results flagged for a closer look

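Auxin effects that differed between lines, by the contrast of a tagged line with the untagged one, were those in NPC of Cyp1b1 (3.04), Ahr (1.92) and Nqo1 (1.21) in the SUZ12 line and of Nqo1 (0.75) in the JARID2 line, all on the log2 scale. The SUZ12 values rest on 2 auxin libraries. Auxin effects that differed between the stages, averaged over the 4 lines as NPC minus ESC, were those of Cyp1a1 (-1.59), Ahr (0.49), Nqo1 (0.41) and Tiparp (0.22). With auxin all 12 ESC libraries had Cyp1a1 reads, while 4 of the 11 NPC libraries had none.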

How the results depend on the processing

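Of 196 results recomputed in 3489 alternatives, 54 were called in the first place, 37 of these kept the call in every alternative and 17 lost it in at least 1; the called SUZ12 NPC effects and the averaged auxin effects within a stage lost none. With only the groups compared in the fit, these did not pass: Cyp1a1 in untagged (1.51) and JARID2 ESC (1.73), Cyp1b1 in untagged (1.31) and SUZ12 ESC (1.09), Nqo1 in untagged ESC (0.3), Ahrr in SUZ12 ESC (0.88), Nqo1 beyond untagged in JARID2 NPC (0.75), untreated Cyp1b1 in JARID2 NPC (0.71), Tiparp from ESC to NPC in MTF2 (0.3) and Ahrr from ESC to NPC in untagged cells (0.62). Fewer samples then set the spread. That fit gave no filtered value for Cyp1a1 in MTF2 ESC. Without the filter, Nqo1 in untagged (0.3) and SUZ12 ESC (0.2), Nqo1 beyond untagged in JARID2 NPC (0.75) and Tiparp by stage (0.22) did not pass, with more genes tested. Median-of-ratios scaling gave 0.09 for Nqo1 in SUZ12 ESC and turned Tiparp by stage in untreated MTF2 cells to -0.05. A pseudocount of 0.1 gave 1.86 for Ahrr in SUZ12 ESC and 0.22 for the averaged Tiparp difference between stages, neither passing. Recovered reads turned the averaged Cyp1b1 difference between stages to -1.07. The cause was not tested.

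With the replicate number as a block, by title or library name, Nqo1 missed the threshold in untagged ESC (0.3, limma adjusted p = 0.0529) and SUZ12 ESC (0.2, limma adjusted p = 0.0574), and 14 of 21 auxin libraries were closest to their own number.

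Leaving out 1 library at a time gave ranges of 1.31 to 1.85 for Cyp1a1 in untagged ESC, 1.3 to 1.45 in MTF2 ESC and 1.5 to 1.92 in JARID2 ESC, 1.23 to 1.47 for Cyp1b1 in untagged ESC, 0.25 to 0.35 for Nqo1 in untagged ESC and 0.17 to 0.23 in SUZ12 ESC, 0.81 to 1.01 for Ahrr in SUZ12 ESC, 0.5 to 0.92 for Nqo1 beyond untagged in JARID2 NPC, 0.6 to 0.84 for untreated Cyp1b1 in JARID2 NPC, and 0.19 to 0.26 for Tiparp by stage.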
